A study of Mus musculus with 4 samples.

Results

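Inside genes and away from their starts, 2716 CpG-poor regions carried a Gata4 peak in mesoderm cells without Dnmt3a and Dnmt3b (DKO) and had no peak close by in wild-type (WT) mesoderm cells. The regions were selected on the measured peak lists themselves. A peak of the DKO list was taken when no peak of the WT list lay within 500 bp of its position, at least 1 gene contained it, no gene start lay within 1000 bp, and the window of 250 bases to either side of it held fewer than 20 CpGs. Of 22733 DKO peaks, 12483 had no WT peak within 500 bp, 6828 of these lay inside a gene, 3256 of the latter had no gene start within 1000 bp, and 2716 also passed the CpG limit. Without a WT peak were 54.9% of all DKO peaks and 56.8% of the 4784 CpG-poor DKO peaks inside genes. The absence of a WT peak, the low CpG count and the place inside a gene are therefore what the rule asked for, and they are given as a description. A peak that was called in 1 list only was not tested for a difference in signal, since neither list holds the other library's signal at such a position.

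Each condition was 1 library, so no comparison of WT with DKO takes account of the spread between libraries, and genotype, clone and library cannot be told apart. The DKO Flk1(+) library was also sequenced more deeply than the WT one, per the study's methods, and the part of depth in the number of peaks called in DKO alone was not tested. All cells carried Gata4GR, in which Gata4 is fused to the part of the human glucocorticoid receptor that binds its ligand and is driven by the CAG promoter, and which dexamethasone (Dex) brings into action. The DKO Flk1(+) cells (Dnmt3a-/-Dnmt3b-/-, clone 16G4.3) and the WT Flk1(+) cells (J1 line, clone J1G4.2 on the label and J1G4.211 in the methods) were grown on OP9 stroma to day 4.5, given 100 nM Dex for 3 hr and sorted on beads for Flk1, a receptor on mesoderm. Each line was 1 clone. Undifferentiated WT ES and DKO ES cells of these lines without Dex were the background libraries, and a mixture of antibodies to Gata4 was used throughout. The values are the authors' peak heights, their ratio to the height in the matching ES cells (enrichment), and the rank of each peak by their score, with 1 the best. A peak list holds no expression, so the sorted cell type was not checked by markers here.

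Gata4 is a zinc-finger transcription factor of the heart and of primitive endoderm, and the family binds short DNA words built around GATA. Dnmt3a and Dnmt3b place new methyl groups on the cytosine of CpG, so a stretch without CpG offers these enzymes little of their usual substrate. Regions inside introns often act as enhancers, which is why the position of a GATA word within such a region is of interest.

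Sequences of 121 bases around 8 of the positions show the kinds of region the list holds (mm9, plus strand, 5′ to 3′, all within introns). The first 5 were chosen to show GATA words near the position, 3 of them from the 10 best-ranked regions, and *Eya4* shows an array of the word. Capitals mark WGATAA (W stands for A or T) or its reverse complement.
Zfpm1, chr8:124837454-124837574: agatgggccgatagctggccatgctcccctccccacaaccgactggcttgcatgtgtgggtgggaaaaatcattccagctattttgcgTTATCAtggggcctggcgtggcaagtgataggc
Trappc9, chr15:72759240-72759360: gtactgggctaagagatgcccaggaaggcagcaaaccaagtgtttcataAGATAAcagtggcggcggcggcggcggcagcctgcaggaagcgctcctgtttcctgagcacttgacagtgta
Gmds, chr13:32261106-32261226: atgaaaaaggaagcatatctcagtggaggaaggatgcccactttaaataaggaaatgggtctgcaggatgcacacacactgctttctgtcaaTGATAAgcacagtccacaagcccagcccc
Tead1, chr7:119828917-119829037: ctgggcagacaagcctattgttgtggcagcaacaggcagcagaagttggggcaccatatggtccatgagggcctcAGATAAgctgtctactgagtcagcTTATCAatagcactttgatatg
Lgmn, chr12:103658715-103658835: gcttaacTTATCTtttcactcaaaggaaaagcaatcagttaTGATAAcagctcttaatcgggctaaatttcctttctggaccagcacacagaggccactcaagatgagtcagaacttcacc
Eya4, chr10:22994616-22994736: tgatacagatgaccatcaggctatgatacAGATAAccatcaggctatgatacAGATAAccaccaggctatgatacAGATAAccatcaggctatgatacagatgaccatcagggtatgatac

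The other two are well-ranked regions without WGATAA in the window. Capitals in *Atxn1* mark TGANTCA, the site of AP-1 factors, and in *Adam19* they mark CACACA on either strand.
Atxn1, chr13:45719329-45719449: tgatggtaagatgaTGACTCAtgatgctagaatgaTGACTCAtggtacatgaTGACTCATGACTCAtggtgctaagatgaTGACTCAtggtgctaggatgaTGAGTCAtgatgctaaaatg
Adam19, chr11:45878881-45879001: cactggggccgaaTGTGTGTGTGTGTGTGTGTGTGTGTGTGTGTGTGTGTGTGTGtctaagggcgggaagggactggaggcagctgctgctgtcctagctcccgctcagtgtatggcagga

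The *Zfpm1* region ranked 74 in the DKO list and was the highest of the 2716, at a height of 41.3 against 3.20 in DKO ES, an enrichment of 12.9. It lay in intron 3 at position 124837514 of chromosome 8 and held 3 WGATAA matches in its window, of which 1 falls within the stretch printed. The nearest WT peak, of height 10.0, lay 1454 bp away inside the same gene. *Zfpm1* encodes Fog1, a cofactor that binds GATA factors directly. *Trappc9*, for a subunit of a vesicle transport complex, had a height of 16.9 over 0.456 in DKO ES, with its single match 8.5 bp from the position. *Gmds*, for an enzyme of GDP-fucose synthesis, reached 14.6 over 0.306, with its match at 34.5 bp. *Tead1*, a transcription factor of the Hippo pathway, had a height of 12.7 over 1.17 at rank 621, with both of its matches within the printed bases. The region of *Lgmn*, which encodes the protease legumain and is a reporter fragment gene of the study, was weaker, at 7.13 over 1.58 and rank 4821, with 2 matches. The window in *Eya4*, a partner of homeodomain factors, held 20 matches and no CpG, at a height of 6.06 over 1.18 and rank 8846.

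Among the 10 best-ranked regions, 8 held WGATAA and *Atxn1* and *Trp73* did not. *Atxn1* stood at 15.6 over 1.56 at rank 286, with 17 TGANTCA matches in the window, of which 6 fall within the printed bases. *Trp73*, a relative of p53, stood at 14.4 over 1.48 and lay 587 bp from a WT peak of height 7.22. Next in rank without the motif was *Adam19*, a membrane metalloprotease, at 21.8 over 2.5, with a run of TG in the printed bases. The other 5 of the best 10 lay in *Zfp521*, *Sufu*, *Eng*, *Vac14* and *Msi2*, with heights of 18.8, 26.4, 14.6, 14.4 and 14.3. *Sufu* restrains Hedgehog signalling, *Eng* encodes the TGF-beta co-receptor endoglin of endothelium, and *Msi2* encodes an RNA-binding protein. The best ranks were thus mostly regions with 1 to 3 WGATAA matches.

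Heights and ranks are close to what the rule selected, and are given without a test. The 2716 regions stood at a median height of 5.93, and the lowest, 5.00, was at the floor of the list. Their enrichment had a median of 4.55. The 2068 CpG-poor DKO peaks inside genes that did have a WT peak within 500 bp, called shared here, had medians of 7.14 for height and 5.70 for enrichment. The median rank was 12809.5 for the DKO-only regions and 6715.5 for the shared ones. DKO ES height was under 1 in 26.5% of the DKO-only regions (95% Wilson interval 24.9% to 28.2%) and in 38.9% of the shared peaks, and the authors' enrichment takes such a background as 1. The DKO-only regions were thus weaker peaks over a slightly higher background, with medians of 1.36 and 1.17.

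**Figure D1:**
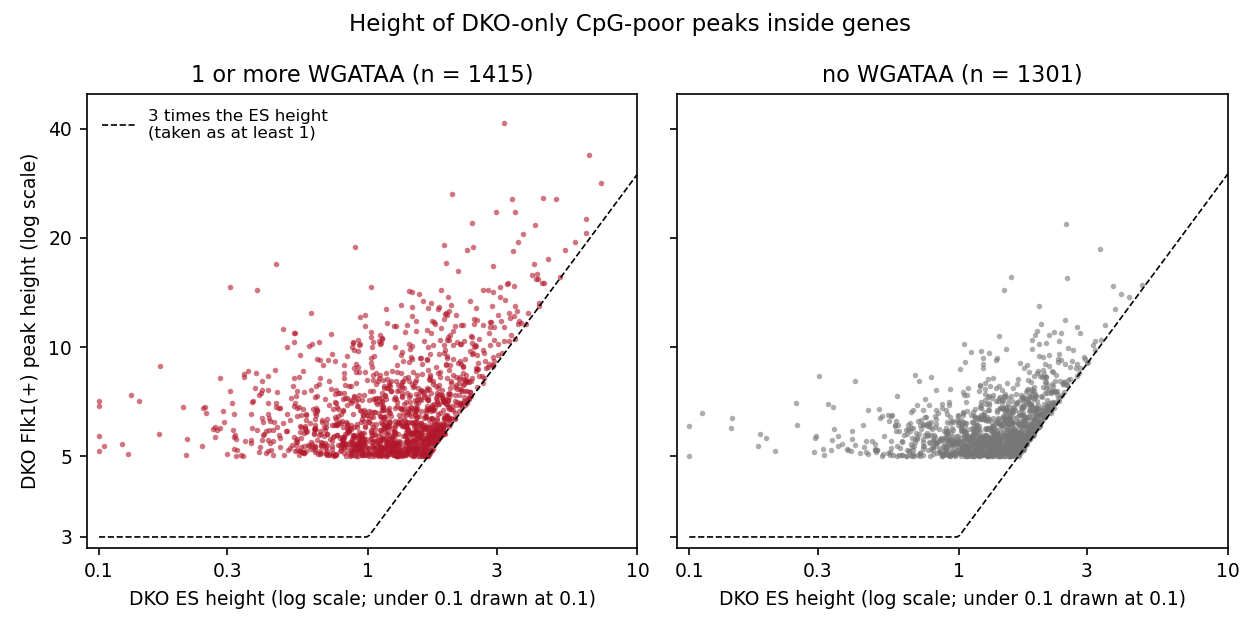
Height of each of the 2716 regions in DKO Flk1(+) (vertical, log scale) against the DKO ES height (horizontal, log scale), for the 1415 regions with WGATAA (left, red) and the 1301 without (right, grey); the dashed line is 3 times the ES height. Most points lie low on the plot, with medians of 6.16 and 5.72, and 170 regions with the motif and 30 without it exceed a height of 10.

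Few regions lay at the edges of the rule. With 19 CpGs there were 36 regions inside the limit, and with 20 there were 22 outside it. A WT peak lay up to 100 bp beyond the limit at 26 regions, and 28 shared peaks had theirs in the last 100 bp inside it. The nearest to the limit was a region in *Fat1*, a giant cadherin, 511 bp from a WT peak of height 38.7. At the start limit, 25 regions had a start up to 100 bp beyond the limit and 39 peaks were left out by the last 100 bp inside it. Most regions were far from a WT peak, with a median distance of 21326.5 bp and 20.1% within 5000 bp. The farthest, in *Mdga2*, lay 1541640 bp from one. Among the 2716, 201 (7.4%) lay within 500 bp of another of them, so that neighbouring regions share bases. Among the 2068 shared peaks 321 (15.5%) did. The intervals given here count such windows as independent.

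WGATAA was not used to choose the regions. It occurred in 1415 of 2716, which is 52.1% (95% Wilson interval 50.2% to 54.0%), against 38.1% of all DKO peaks. The latter are unlike the regions, with a median of 21 CpGs against 7 under the CpG limit of the rule. The same holds for the other motif shares given beside all DKO peaks. In windows of equal length centred 2 kb to either side of the regions WGATAA occurred in 36.8%, a ratio of 1.41. Among the shared CpG-poor peaks inside genes it occurred in 81.8% (80.1% to 83.4%), which is 2.12 times the share in their own flanking windows. The difference between DKO-only and shared peaks was -29.7 percentage points (95% Newcombe interval -32.2 to -27.2). These intervals cover counting error within 1 library. DKO-only CpG-poor peaks for which the list names no gene stood near the regions inside genes, at 55.8%, a difference of -3.69 points (-6.48 to -0.894). In the WT list, CpG-poor peaks inside genes without a DKO peak held the motif in 75.6%. The DKO-only regions thus held WGATAA above their surroundings but less often than shared peaks of the same kind.

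Matches gathered at the peak position. Of 2382 matches in the DKO-only regions, 42.4% (40.4% to 44.4%) lay in the central 100 bp, where even placement gives 20.2% and the flanking windows gave 21.7%. In the shared peaks the central share was 47.3% (45.6% to 49.0%). Among peaks with a match, the median distance from the position to the closest match was 40.5 bp in the DKO-only and 29.5 bp in the shared peaks. A match in the central 100 bp was present in 29.6% of the DKO-only regions and in 57.2% of the shared peaks. In both kinds of peak the densest bin of 20 bp lay within 30 bp of the position.

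**Figure D2:**
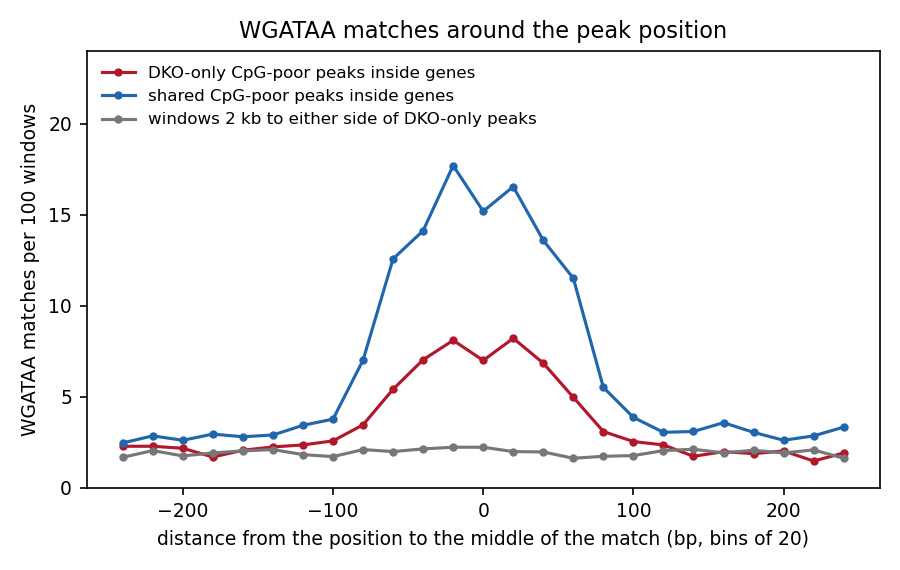
WGATAA matches per 100 windows (vertical) by distance from the peak position in bins of 20 bp (horizontal), for the DKO-only regions (red), the shared CpG-poor peaks inside genes (blue) and the windows 2 kb to either side of the DKO-only regions (grey). The red line reaches 8.21 matches per 100 windows near the centre and the blue line 17.7, and the grey line stays between 1.62 and 2.23.

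The gap to shared peaks was smallest in the best ranks. Among peaks in the best 10% of DKO ranks, 86.2% of 130 DKO-only regions and 90.4% of 491 shared peaks held WGATAA, a difference of -4.27 points with a 95% Newcombe interval from -11.6 to 1.44 that includes no difference. In the next class, 10% to 25%, the shares were 74.1% and 84.5%. At 25% to 50% they were 53.9% and 81.7%, a difference of -27.8 points (-32.7 to -22.7). The gap was largest at 50% to 75%, with shares of 45.2% and 76.2% and a difference of -31.0 points (-36.0 to -25.5). At 75% to 100% they were 43.3% and 68.7%, a difference of -25.4 points, and 688 of the 2716 regions fell in that class. The motif share fell along the ranks in both kinds of peak, and 41.7% of the DKO-only regions against 69.0% of the shared peaks were in the upper 50% of ranks.

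**Figure D3:**
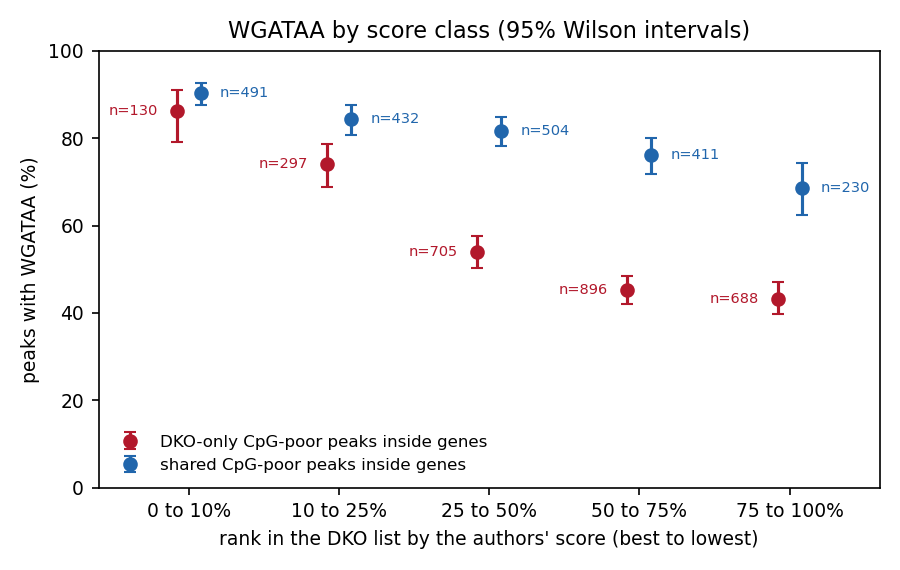
Share of peaks with WGATAA (vertical, %) by class of rank in the DKO list (horizontal, best at the left), for the DKO-only regions (red) and shared CpG-poor peaks inside genes (blue), with 95% Wilson intervals and the number of peaks. The classes start close together at 86.2% and 90.4% and end at 43.3% and 68.7%.

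The CpG count moved the motif share in both kinds of peak. With 0 to 4 CpGs, 56.2% of 676 DKO-only regions and 89.4% of 652 shared peaks held WGATAA. With 15 to 19 CpGs the shares were 31.8% and 53.5%. The difference was present in every class, from -33.2 to -21.7 points. In the central 100 bp, 24.8% of the DKO-only regions had no CpG at all against 29.4% of the shared peaks (difference -4.62 points, -7.17 to -2.08), and 33 regions had none in the window. Within 10 bp of a central match a CpG lay at 25% of matches in the DKO-only regions (22.5% to 27.8%) and at 21.7% in the shared peaks (19.7% to 23.8%). The median region held 7 CpGs and the median shared peak 6. DNA methylation was not measured in these libraries.

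Six-letter words that were denser in the central 100 bp than in the rest of the same windows were GATA words at the head of both lists. GATAAG was 4.03 times denser at the centre of the DKO-only regions and 4.61 times at that of the shared peaks, followed in both by AGATAA, at 3.02 and 3.76, and TGATAA, at 2.76 and 3.23. In the 1301 DKO-only regions without WGATAA the leading words were ACACGT at 2.19, ACACGC at 1.86 and CGCACA at 1.86, each of which holds a CpG, followed by ACACAC at 1.83. A run of 5 CA units on either strand was present in 24.8% of the DKO-only regions without WGATAA (22.5% to 27.2%) and in 12.9% of those with it. Over all 2716 regions the run was present in 18.6%, against 9.51% of their flanking windows, 10.2% of shared peaks and 8.92% of all DKO peaks. DKO-only CpG-poor peaks with no gene named held it more often, in 22.2% (difference -3.66 points, -5.94 to -1.40). Regions without WGATAA were therefore richer in CA repeats than those with it. The same held among the 2068 shared peaks, of which 1692 held WGATAA, 210 held the run, and 54 held the run without WGATAA. The looser word WGATAR (R stands for A or G) was present in 1787 of the 2716, so some regions without WGATAA hold another GATA word.

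Of the other motifs searched on both strands, TGANTCA of AP-1 stood out from the flanks in the regions, as it did in the parts most like them. It was present in 25% (23.4% to 26.7%) against 14.2% of flanking windows, 15.5% of all DKO peaks and 27.7% of shared peaks, and 31.0% of its matches were central. The flanks of the shared peaks held TGANTCA in 13.2%. DKO-only CpG-poor peaks with no gene named held it in 26.2% and their flanks in 15.5%. In the regions it was as common with WGATAA, at 25.2%, as without, at 24.8%. TTCAGCACC of Rest was rare, at 1.03% of the regions, 0.534% of their flanks and 0.387% of shared peaks. GGAAGT of Ets factors was present in 35.9% and in 27.2% of the flanks, and 35.9% of shared peaks held it too. The full glucocorticoid receptor site was rare, at 1.47% (1.08% to 2.00%) against 0.700% of flanks, 0.845% of all DKO peaks and 0.870% of shared peaks, and its shorter element AGAACA was present in 34.5% against 38.8% of flanks and 24.6% of all DKO peaks. CACTTAA of Nkx2 factors was present in 4.60% against 5.53% of flanks and 7.54% of shared peaks, a difference of -2.94 points (-4.36 to -1.58). None of WGATAA, the AP-1 site and the CA run was found in 26.6% of the DKO-only regions and in 10.6% of shared peaks. A match says only that the letters are there.

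By the gene models of GENCODE vM1, 88.8% of the regions lay in introns (87.6% to 89.9%), 5.27% in coding exons and the same share in UTR or noncoding exons. Shared peaks lay in introns in 93.9% and in coding exons in 1.69%, so that coding exons held 3.57 points more of the DKO-only regions (2.56 to 4.59). Of intronic regions with a protein-coding model, 32.9% fell in the first intron against 36.1% of shared peaks. The median distance to the gene start was 30780 bp. Lower-case letters, which usually mark repeats, covered the position in 19.6% of the DKO-only regions and 12.6% of the shared peaks (difference 6.93 points, 4.84 to 8.98). In the DKO-only CpG-poor peaks with no gene named the share was higher, at 26.9% (difference -7.33 points, -9.71 to -4.96). Among peaks without any lower case WGATAA was present in 53.3% and 79.7%, near the values over all peaks.

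The 2716 regions lay in 1885 named genes, and 1381 of these held 1 region. Of 22238 protein-coding genes in the annotation, 1824 held a region, which is 8.2%, and these were long, with a median of 70.2 kb against 15.4 kb for all. Of the genes of 50 kb or more, 23% held one. A shared CpG-poor peak lay inside 28.8% of the 1885 genes, and a WT-only one inside 36.9%. Over all protein-coding genes these shares were 5.88% and 9.94%, and over those of 50 kb or more 18.8% and 31.4%. Of the 1885 genes, 52.7% held neither kind, and this share was not computed over all genes. A DKO peak also lay within 1000 bp of the start in 50.8% of the protein-coding genes with a region, against 33.7% of all protein-coding genes.

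*Sept9*, which encodes a septin of the cytoskeleton, held the most regions, 10 with heights from 5.02 to 9.60, of which 2 held WGATAA. *Zfpm1*, *Gm672*, *Myh9*, *Pcnxl2*, *Rasa3* and *Pard3* held 8 each, and *Tead1*, *Palld* and *Tanc1* 7 each. *Myh9* encodes a non-muscle myosin, *Pard3* a cell polarity protein and *Palld* an actin-binding protein. None of the 10 genes was without WT peaks, and *Rasa3*, a regulator of Ras, had the fewest, with 2 in the WT list against its 8 regions. The 8 regions of *Zfpm1* ranged from 5.07 to 41.3 and 6 held WGATAA, and the gene also held 8 shared CpG-poor peaks and 2 WT-only ones. Of these 10 genes, 5 lie on chromosome 8, which held 13.1% of the regions and 2108 of all 22733 DKO peaks.

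Chromosome 8 held the most regions, 356 or 13.1%, and 2108 of all 22733 DKO peaks. Chromosome 11 was next, with 306 or 11.3%, and 2316 of the DKO peaks. Chromosome 8 stood apart from the others in the ratios that follow. Of its CpG-poor DKO peaks inside genes 68.9% were DKO-only, against 40.6% on X to 64.8% on chromosome 16. For each CpG-poor peak inside a gene that was found in the WT list only, there were 1.60 DKO-only regions on chromosome 8 and from 0.302 to 0.820 on the other chromosomes. The WT ES height was also highest on chromosome 8. At peaks shared between the lists the WT ES height was a median 1.79 times the DKO ES height on chromosome 8, against 1.14 on chromosome 11 to 1.55 on chromosome 18, and the WT peak height was 1.42 times the DKO peak height against 1.16 to 1.32. Next highest in regions for each WT-only peak was chromosome 10, at 0.820, with an ES height ratio of 1.39. Next highest in the ES height ratio was chromosome 18, at 1.55, with 0.493 regions for each WT-only peak. No relation between these values over all chromosomes was computed. The median WT ES height at WT peaks was 1.98 on chromosome 8 and at most 1.78 elsewhere. Its part in the count of regions was not tested. Without chromosome 8, 52.5% of 2360 regions held WGATAA and the difference from shared peaks was -29.3 points, and *Zfpm1*, *Col4a1* and *Col4a2* lie on this chromosome.

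**Figure D4:**
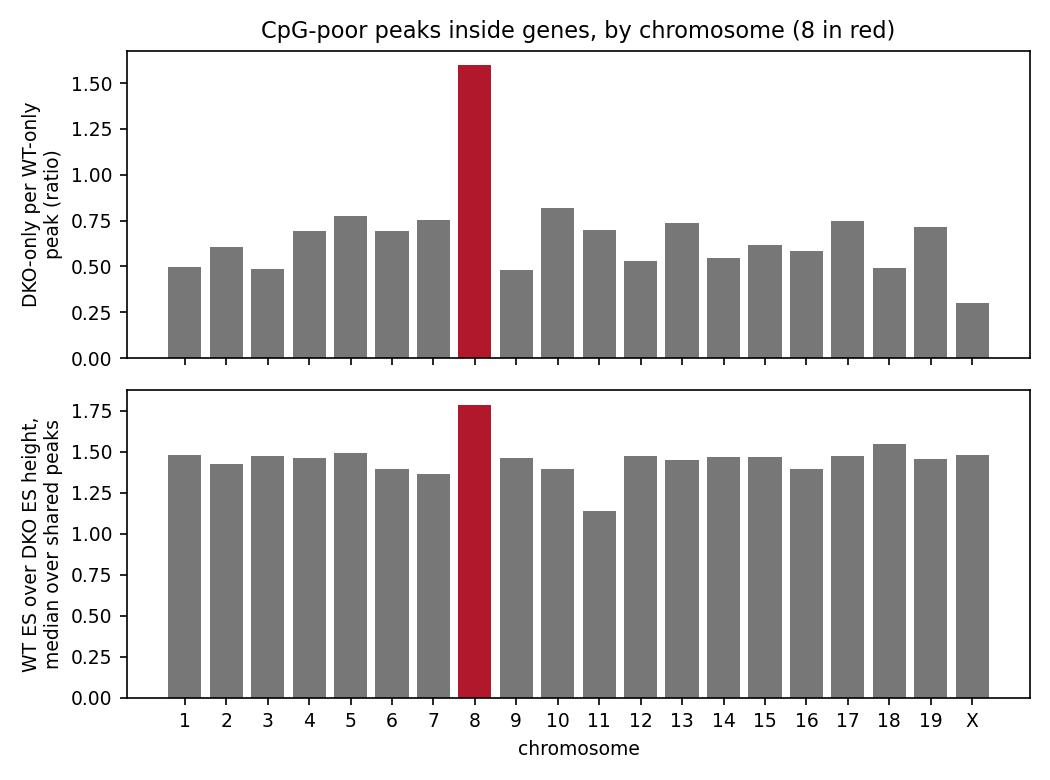
Top, DKO-only CpG-poor regions inside genes for each WT-only one (vertical, ratio) by chromosome (horizontal); bottom, the median ratio of WT ES to DKO ES height over the peaks shared between the lists. Chromosome 8 (red) is the highest in both, at 1.60 and 1.79.

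Genes of blood and vessels, which share the mesoderm origin of Flk1(+) cells, held a region in 17 of 43 genes, 39.5%, against 20.9% with a shared and 30.2% with a WT-only CpG-poor peak. By number of peaks the order was the other way, with 26 DKO-only regions and 29 WT-only peaks. A region lay in 8.2% of all protein-coding genes and in 23% of those of 50 kb or more. The median gene of this list was 35.2 kb long. *Notch1*, the receptor, held a region in intron 14 with a height of 12.5 over 0.614 in DKO ES, 29941 bp from the nearest WT peak, and with 2 WGATAA matches. *Eng* held 3 regions, of which the best, in intron 2, reached 14.6 over 1.03. *Ets1*, an Ets transcription factor, held a region in exon 6 at 13.2 over 1.71. Of the 17 genes, the 8 genes *Efnb2*, *Fli1*, *Flt4*, *Gata1*, *Gata2*, *Kit*, *Notch1* and *Pecam1* held regions and neither a shared nor a WT-only CpG-poor peak inside, as did 52.7% of all genes with a region.

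*Gata1*, of the red cell lineage, held a region in intron 3 with 4 WGATAA matches, at 7.73 over 1.35. *Gata2*, of blood stem cells, held one in intron 4, at 6.76 over 0.574, with 1 match. *Gata4* itself held a region in intron 2, at 7.46 over 1.99 and an enrichment of 3.74, with 5 matches. The 3 regions of *Fli1*, another Ets factor, all lay in intron 1, with heights of 7.60, 7.11 and 6.86, and each held WGATAA. The ranks were 3576 for *Gata1*, 5885 for *Gata2* and 18363 for *Gata4*, against a median of 12809.5 over the 2716 regions.

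Visceral endoderm effectors held a region in 9 of 36 genes, 25%, against 22.2% with a shared and 16.7% with a WT-only CpG-poor peak. A region lay in 8.2% of all protein-coding genes and in 23% of those of 50 kb or more. The list held 23 regions in all. *Col4a2* held 7 and *Col4a1* 3 of these, for the chains of type IV collagen, both on chromosome 8, with heights from 5.06 to 11.6. *Cubn*, the receptor cubilin, held 3, all with WGATAA, at heights of 6.81, 5.34 and 5.31, and *Sparc*, a matrix protein, held 3, of which 1 held the motif. Of the endoderm regulators, 3 of 26 genes held a region, 11.5%, near the 8.2% of all protein-coding genes. *Nr5a2*, a nuclear receptor, held 1, at 7.22 over 1.26, and *Rxra*, another, held 3, at up to 8.98 over 2.09. *Nr5a2* held neither a shared nor a WT-only CpG-poor peak.

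Cardiac regulators held a region in 5 of 29 genes, 17.2%, against 37.9% with a shared and 34.5% with a WT-only CpG-poor peak. These were *Tead1* with 7 regions, *Nfatc1* with 4, and *Gata4*, *Mef2c* and *Myocd* with 1 each. The region of *Mef2c*, a MADS-box factor of muscle, was the weakest of all 2716, at 5.00, and that of *Myocd*, a co-activator of SRF and a reporter fragment gene of the study, stood at 5.32 over 0.471. Contractile genes held one in 6 of 42, 14.3%. *Fhod3*, a formin of sarcomeres, had the highest of these, at 33.9 over 6.62 and rank 832, and a second at 10.3 over 1.12 in the same intron 3, both with 2 WGATAA matches and 4350 and 1027 bp from a WT peak. *Nebl*, for nebulette of the Z line, had the best-ranked of them, 703, at 12.2 over 0.975, and *Tpm1*, a tropomyosin, one at 11.8 over 1.76. Over all protein-coding genes 8.2% held a DKO-only region and 9.94% a WT-only peak.

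Of 15 GATA cofactors, only *Zfpm1* held regions, 6.67% of the list against 8.2% of all protein-coding genes, and 3 held a shared peak. Of 25 glucocorticoid receptor targets in the annotation, *Sgk1*, a serum- and glucocorticoid-induced kinase, held the single region, at 5.28 over 1.46 in intron 3. Of 22 DNA methylation enzymes and related genes, *Dnmt3a* and *Dnmt1* held regions, 9.09% of the list. *Dnmt3a*, which is disrupted in these cells, held one in intron 6, at 15.0 over 3.30, with 1 match and 93345 bp from the nearest WT peak. *Dnmt1*, the maintenance methyltransferase, held 2 of low rank, at 6.15 over 1.54 and 5.04 over 1.59.

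In the signalling lists, BMP and TGF-beta genes held a region in 10 of 40, Wnt genes in 13 of 47 and FGF and receptor kinase genes in 12 of 37, that is 25%, 27.7% and 32.4%. *Ltbp1*, which binds latent TGF-beta, had the best of the first list, at 10.8 over 0.730, followed by *Smad3* and *Smad5*, transducers of TGF-beta and BMP signals, at 10.0 over 1.26 and 8.14 over 0.990. *Vangl1*, of planar cell polarity, held 3 regions, all with WGATAA, and 1 reached 18.4 over 3.44 with its closest match 0.5 bp from the position. *Prickle1*, of the same pathway, had 11.6 over 1.77. *Spred2* and *Mapk14*, of the Ras and kinase cascades, had 10.5 over 1.97 and 6.10 over 0.765. A WT-only peak lay in 11, 20 and 15 genes of these lists, and over genes of 50 kb or more too it was the more frequent kind, at 31.4% against 23%.

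Adhesion and axon guidance genes are very long, with a median of 451.5 kb, and 21 of 45 held a region, 46.7%, while 75.6% held a WT-only CpG-poor peak. For each Mb of these genes there were 0.892 DKO-only regions and 5.18 WT-only peaks, against 2.61 and 3.81 over all protein-coding genes. *Ptprm*, a receptor phosphatase of cell contacts, held a region at 9.35 over 1.02, 220090 bp from a WT peak and with 4 matches. *Slit1*, a guidance ligand, had 9.76 over 1.21 with no match. Epithelial junction genes held a region in 8 of 39, 20.5%, and 8 of their 15 regions lay in *Pard3*. The genes that the study named hyper-responsive, which it chose by expression in cells of these lines and which are thus not independent of the DKO state, held a region in 6 of 53 in group 1 and 8 of 39 in group 2, 11.3% and 20.5%. *Ccdc19* at 12.2 over 1.45 and *Plcb4*, a phospholipase, at 10.0 over 1.03 led group 1. Over the 15 lists the share of genes with a region ran from 4% to 46.7%, against 8.2% of all protein-coding genes and 23% of those of 50 kb or more, and the lists were not matched for length.

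**Figure D5:**
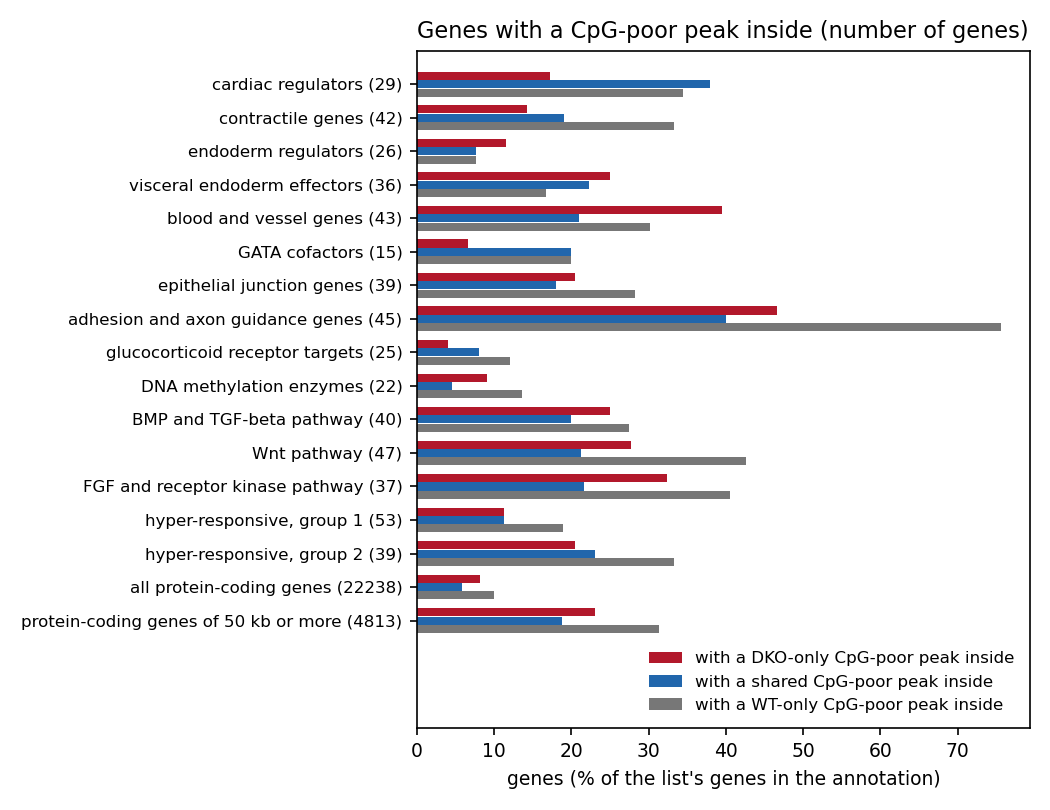
Share of genes (horizontal, %) with a DKO-only (red), shared (blue) or WT-only (grey) CpG-poor peak inside, for each list of genes, with the number of its genes in the annotation in brackets; the lowest pair of groups are all protein-coding genes and those of 50 kb or more. Red exceeds grey in blood and vessel genes (39.5% and 30.2%), endoderm regulators (11.5% and 7.69%) and visceral endoderm effectors (25% and 16.7%), and lies below it in the other lists and in all protein-coding genes. By number of peaks, blood and vessel genes held fewer DKO-only regions (26) than WT-only peaks (29). The endoderm regulators differ by 3 genes against 2 and the visceral endoderm effectors by 9 against 6. Of the regions in the visceral endoderm effectors, 7 and 3 lay in *Col4a2* and *Col4a1* on chromosome 8.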

How the data were processed

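Gata4 ChIP-seq was made by the authors from 4 libraries, 1 per condition, and mapped by a sequencing company, on mm9 per the labels. The labels name CASAVA 1.8.1 and cutadapt, and the aligner is not given in the sources used here. The authors called peaks with the ES library of each genotype as background, using the DNAnexus tools. The deposited lists hold the signal height of each peak and of its ES background, their ratio (fold enrichment, which takes a background under 1 as 1), the −log10 of a q-value, and the authors' score, used as a rank. No height was under 5 and no enrichment under 3. Per the methods, the DKO Flk1(+) library had more mapped reads than the WT one. The depth of the ES libraries and any scaling of heights for depth are not known here. The lists name no library, and each was given its genotype from the peak number in the methods. Distances to RefSeq genes, up to 4995 bp, are the authors'.

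All 22733 deposited DKO windows matched mm9 at their position. Motifs (23) were searched on both strands, with windows 2 kb to either side as background, and a word needed 200 occurrences. Place came from GENCODE vM1. Shares carry 95% Wilson intervals and differences 95% Newcombe intervals, for counting error only. No test across libraries was possible. The regions, 15 gene lists and motifs were chosen with earlier results of these data known. Regions were named by rule: the 10 best ranks, the 10 genes with most regions, up to 3 regions of each list, the reporter fragment genes, and those at the thresholds or with most matches. *Gata1*, *Gata2*, *Gata4*, *Fli1*, *Kit*, *Efnb2*, *Flt4*, *Pecam1*, *Col4a1*, *Tpm1*, *Sparc*, *Nfatc1* and *Adam19* were named beyond it after their values were seen, and 1 gene is not reported here. The alternatives were other distances, CpG limits, scores, motifs, windows and gene models. Steps were tested on simulated data. Python 3.11.15, NumPy 2.4.6, pandas 2.3.3, pysam 0.24.0 and Matplotlib 3.10.9 were used.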

Additional observations from a re-analysis of the deposited data

How the results depend on the processing

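No paired analysis was possible because each condition had 1 library. The difference in WGATAA from shared peaks stayed negative in all 14 settings that gave it, from -33.4 to -21.4 points, and 61 of 93 recomputed values kept within the 95% interval of the value reported, or, for the number of regions, within 1.5 times. With the upper 50% of ranks taken in each list before the rule, which also takes WT peaks away, 1460 regions passed, against 1132 of the 2716 that rank in the upper 50%, and 65.8% of the 1460 held WGATAA, with a difference of -22.8, a ratio over flanks of 1.71, a central share of 45.7% and 91.7% in introns. With an enrichment of at least 5 there were 1639 regions, with 67.8%, -22.4, 1.78, 45.2% and 91.5%. With fewer than 10 CpGs the motif share was 56.9%, the ratio 1.5, introns 93.3%, and 33.0% had no central CpG. With fewer than 15 CpGs, 54.0% held the motif, 90.8% lay in introns and 26.8% had no central CpG. An ES height of at least 1 gave 49.7% with the motif. With no WT peak allowed within 1000 bp or 5000 bp of a region, 2609 and 2170 regions passed, with differences of -27.0 and -21.4. A limit of 100 bp gave a central share of 40.2%. No gene start within 5000 bp gave 90.0% in introns and protein-coding models alone 90.1%. WGATAR gave 65.8%, -23.4, 1.16 and a central share of 36.2%, and the central 200 bp of the window gave 39.4%, -33.4 and 2.32. Leaving out chromosome 8, chosen after the data were seen, kept the motif share at 52.5%. The CpG, window, motif and WT distance settings change these values by construction, the last by moving peaks between the regions and the shared class. The cause was not tested for the others. With 1 library per condition no value measures the spread between libraries.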
